A study of Mus musculus with 8 samples.

Results

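Rpl3l and Rpl3 are paralogous genes for the large-subunit ribosomal protein uL3, and their transcripts were followed here in nuclei of whole hearts of mice lacking tafazzin (Taz-KO) and of wild-type mice (WT). The members were the rows of the count tables with the symbols Rpl3l and Rpl3, 2 of 32285 genes. They were selected on values measured in these same libraries, namely the level of each gene per mouse in cardiomyocytes (CMs), in other nuclei and in the barcodes with the fewest unique molecular identifiers (UMIs), in WT against Taz-KO, and the ratio of Rpl3l to Rpl3. The difference between genotypes in either gene is therefore given as a description, with no test, and tests between genotypes are given for other genes only.

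The protein uL3 is part of every cytosolic ribosome. It lies in the core of the large subunit, with an extension that reaches towards the peptidyl transferase centre, where peptide bonds are formed. Most tissues make it from Rpl3. Heart and skeletal muscle also express Rpl3l, whose product takes the place of the Rpl3 product in muscle ribosomes after birth, and the messages of the paralogs tend to move in opposite directions when muscle grows or is injured. Tafazzin is a mitochondrial transacylase that remodels cardiolipin, and its loss in humans causes Barth syndrome, with cardiomyopathy and skeletal myopathy.

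The groups were 4 male WT and 4 male Taz-KO mice, all 9 weeks old, and each gave 1 single-nucleus RNA-seq library from its whole heart, minced and cryopreserved (10x Genomics 3′ v3.1 chemistry). No treatment or further allele is named for either group, the extent of the Taz deletion is not given in the sources used here, and mice are numbered 1 to 4 within a group by name only. Tables held 3492 to 36308 barcodes and 20025456 to 348080773 UMIs per library, with fewer than 10000 barcodes in Taz-KO 1 and Taz-KO 4. The other libraries held 21190 to 36308 barcodes, above the approximately 10000 nuclei that the study states for each library. Of 169193 barcodes, 151264 passed the filters and were not scored as doublets, and 3295 barcode sequences occurred in more than 1 library. The study kept fewer nuclei after its own filters. How many of the barcodes kept here hold a single intact nucleus was not tested, so shares of nuclei are shares of such barcodes. Clusters were named from marker genes as cardiomyocyte-like, fibroblast-like and so on, and are called CMs, fibroblasts (FBs) and the like for short. CMs carried high Ryr2 and Ttn with other genes of the sarcomere and of calcium handling, and 26.0% of nuclei stayed unnamed. In whole-tissue nuclei, a lower level can mean less RNA per nucleus or a different mix of nuclei within a named type, which cannot be told apart by a sum. CPM is the gene's part of all UMIs in a sum other than those of mitochondrial genes, scaled alike for every sum. Taz itself was at 48.5 to 54.2 CPM in CMs of the 4 WT mice and at 28.0 to 43.0 CPM in the 4 Taz-KO mice. The groups did not overlap (log2 fold change -0.67, SE 0.17, edgeR adjusted p = 0.0244). The knockout libraries thus still held Taz tags. Taz was not called without WT 1 (edgeR adjusted p = 0.0540) or after subtraction of a background share of 0.2 with the profile of the lowest-UMI 10% of barcodes (edgeR adjusted p = 0.0779). Whether these tags lie in the deleted part is not known from the sources used here.

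In the mouse genome (GRCm38), Rpl3l (ENSMUSG00000002500) lies at chr17:24727820-24736143 on the plus strand and overlaps no other annotated gene (GENCODE vM21). Rpl3 (ENSMUSG00000060036) lies at chr15:80077791-80091868 on the minus strand. Its span also holds 4 small RNA genes on the same strand and overlaps Syngr1 on the opposite strand. The main transcripts, Rpl3l-202 and Rpl3-201, both have 10 exons, with 1375 and 1351 bases and 407 and 403 codons before the stop. Their coding sequences matched at 888 of 1209 aligned bases (73.4%), and the longest run of identical bases in the transcripts was 22. The following stretches are shown because they tell how far a sequencing read can separate the paralogs. Both are exonic and within the coding sequence, are written 5′ to 3′ in lower case, and carry capitals where the paralogs differ. The window of 60 coding bases with the highest match covers coding bases 520 to 579 of both genes, counted from the A of the start codon, and differs at 8 bases:
Rpl3l: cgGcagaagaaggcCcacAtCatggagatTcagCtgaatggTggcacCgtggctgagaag
Rpl3: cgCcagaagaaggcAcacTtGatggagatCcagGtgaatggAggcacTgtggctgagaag
The window with the lowest match covers coding bases 163 to 222 of both genes and differs at 25 bases:
Rpl3l: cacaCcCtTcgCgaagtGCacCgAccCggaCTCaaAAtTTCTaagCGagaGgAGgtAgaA
Rpl3: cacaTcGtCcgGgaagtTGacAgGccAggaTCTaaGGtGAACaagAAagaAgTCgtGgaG
Even the most alike of these windows thus held 8 positions at which the paralogs can be told apart. Where the reads fell along the genes is not known from the counts. Of the 1326 different 50-base words of Rpl3l-202, 0 occurred in a transcript of another annotated gene. Of the 1302 words of Rpl3-201, 1114 did, in 26 other genes that include the processed pseudogenes Rpl3-ps1 and Rpl3-ps2 on chromosome X. No row of the count tables used here carries the GENCODE vM21 symbol of any of these 26 genes, or the ID of Rpl3-ps1 or Rpl3-ps2. The IDs of the others were not looked up. Rpl3 counts are uncertain where reads matched several of these loci, and how such reads were assigned was not tested.

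Each mouse gave 233 to 7416 CMs. In WT, Rpl3l stood at 254, 179, 239 and 187 CPM in mice 1 to 4. In Taz-KO it stood at 24.4, 25, 30.9 and 21.2 CPM. Every Taz-KO mouse was below every WT mouse, and the lowest WT value was several times the highest Taz-KO value. The means were 215 ± 37.2 CPM (SD, n = 4) and 25.4 ± 4.06 CPM (SD, n = 4), a level 8.47 times higher in WT. A gene whose Taz-KO mice all lie below the WT mice was not rare in CMs, since 7.10% of the 18491 genes tested did so, and 6.47% were called lower in Taz-KO by edgeR at an adjusted p below 0.05. The fitted log2 fold change of Rpl3l was -3.22 (SE 0.18), and 39 of the 18491 genes had a lower one. These values chose the gene and are not a test of it.

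Rpl3 was at 48.5, 58.9, 54.6 and 15.2 CPM in CMs of WT mice 1 to 4 while Taz-KO mice 1 to 4 had 103, 69.3, 96.0 and 21.5 CPM. WT 4 and Taz-KO 4 were both far below the other mice of their group. The groups overlapped through Taz-KO 4, while the other 3 Taz-KO mice lay above all WT mice. WT averaged 44.3 ± 19.9 CPM and Taz-KO 72.3 ± 36.8 CPM (SD, n = 4 each), and the fitted log2 fold change was 0.56 (SE 0.45), little more than its error. It ran from 0.29 without WT 4 to 0.85 without Taz-KO 4, and was 1.05 with CMs taken by Ryr2 and Ttn alone and 0.25 after the background subtraction. For comparison, 15.3% of the genes tested had all Taz-KO mice above all WT mice in CMs, and 8.64% were called higher by edgeR. The low values of WT 4 and Taz-KO 4 came with low values of ribosomal protein genes in general: 80 ribosomal protein genes, Rpl3 included, made up 0.192% of CM UMIs in WT 4 and 0.212% in Taz-KO 4, against 0.700% to 1.18% in the other 6 mice.

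The ratio of Rpl3l to Rpl3 UMIs sets both genes against each other within a mouse. It was 5.25, 3.05, 4.37 and 12.3 in WT mice 1 to 4 and 0.238, 0.360, 0.322 and 0.985 in Taz-KO mice 1 to 4. Summed over all CMs of a mouse, Rpl3l was the more abundant message in all 4 WT mice and Rpl3 in all 4 Taz-KO mice. In Taz-KO 4, however, the 195 Rpl3l UMIs and 198 Rpl3 UMIs were nearly even. The order in Taz-KO did not hold in every mouse under other settings, since the highest Taz-KO ratio was 1.04 at the coarser clustering (Leiden resolution 0.5) and 2.22 after the background subtraction (lowest 0.354 and 0.666). The lowest WT ratios were then 3.17 and 6.62, so the groups stayed apart. The mean log2 ratio was 2.44 ± 0.85 for WT and -1.30 ± 0.89 for Taz-KO (SD, n = 4 each), a difference of -3.74 on the log2 scale. The chemistry counts 1 tag per captured molecule and not reads along the transcript. Divided by the length of the main transcripts, each ratio would be multiplied by 0.983, which leaves the order of the paralogs as it is in every mouse. Intronic reads were counted too, and their share is not known from the count tables.

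**Figure D1:**
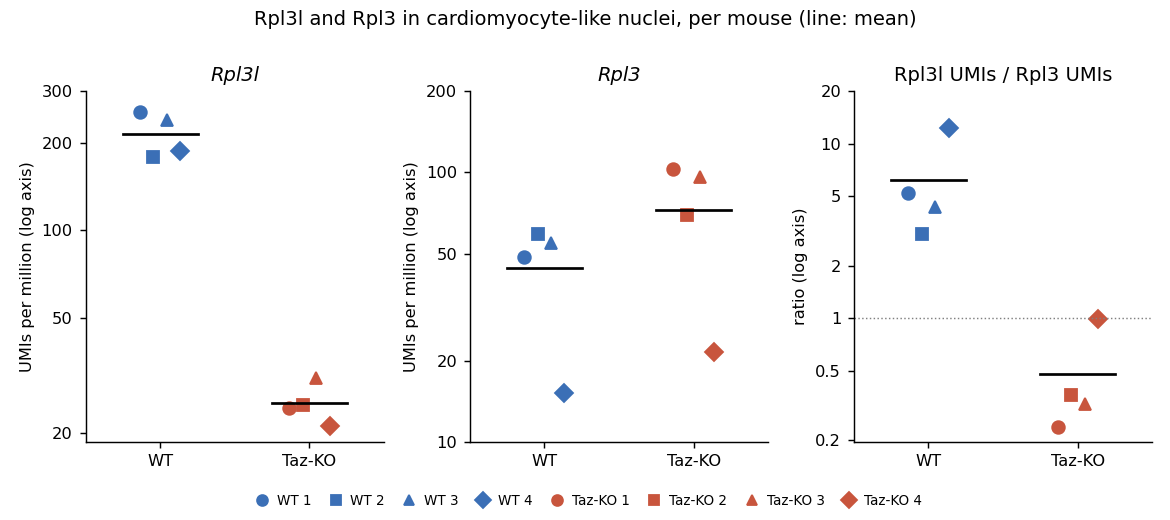
CPM of Rpl3l (left) and Rpl3 (middle) and the ratio of their UMIs (right) in CMs, on log axes, with 1 point per mouse, marker shapes for mouse 1 to 4, and black lines at the group means. All 4 WT mice lie above all 4 Taz-KO mice for Rpl3l (179 to 254 against 21.2 to 30.9 CPM) and for the ratio (3.05 to 12.3 against 0.238 to 0.985), while the Rpl3 values overlap because Taz-KO 4 is low.

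Counted by nuclei, 84.2%, 82.2%, 78.7% and 69.8% of WT CMs held at least 1 Rpl3l UMI, against 26.6%, 24.2%, 18.2% and 14.2% of Taz-KO CMs. Depth differs between mice (median 5559 to 20337 UMIs per CM), so each nucleus was also thinned to 1000 UMIs, which left out 1 CM of Taz-KO 1, 118 of Taz-KO 4 and none of the other mice. After thinning, 19.0% ± 2.87 of WT CMs and 2.49% ± 0.641 of Taz-KO CMs (SD, n = 4 each) held an Rpl3l UMI. The groups did not overlap on either scale. An Rpl3 UMI was found in 5.49% ± 2.38 of thinned WT CMs and in 8.79% ± 4.90 of thinned Taz-KO CMs (SD, n = 4 each), which overlapped.

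Whether CMs with an Rpl3l UMI held Rpl3 less often was read within each mouse. At 2000 UMIs per nucleus, Rpl3 was found in 11.9% of the WT 1 CMs that held an Rpl3l UMI and in 12.3% of those that did not. The corresponding shares were 12.8% and 13.1% in WT 2, 12.7% and 12.7% in WT 3, and 3.44% and 3.61% in WT 4. In each WT mouse the shares were nearly equal. In Taz-KO a small part of the nuclei held Rpl3l, and the shares went either way. They were 33.3% and 26.5% in Taz-KO 1 (4 nuclei with both messages, 8 with Rpl3l only) and 8.47% and 16.1% in Taz-KO 2 (31 and 335). In Taz-KO 3 they were 21.7% and 19.8% (70 and 252) and in Taz-KO 4 0% and 4.14% (0 and 21). Taz-KO 2, with the most Rpl3l nuclei of its group, thus had Rpl3 less often among them. This thinning left out 2 CMs of Taz-KO 1, 11 of Taz-KO 3, 346 of Taz-KO 4 and 99 of WT 4. With at most 1 UMI of either gene in most thinned nuclei, a weak relation may have been missed. How weak a relation could be detected at this depth was not tested.

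CMs came from 6 clusters, and Rpl3l and Rpl3 were kept out of the genes used for clustering. As means over mice, cluster 2 held 61.5% ± 3.79 of the CMs of a WT mouse and 32.9% ± 17.1 of those of a Taz-KO mouse. Cluster 6 held 17.8% ± 2.61 and 32.3% ± 7.43 (SD, n = 4 each). In Taz-KO mice 1 to 4 the share of cluster 2 was 28.3%, 46.0%, 46.7% and 10.6%. Because the make-up differed, Rpl3l was read within each cluster. In cluster 2 WT stood at 228 ± 41.4 CPM and Taz-KO at 33.6 ± 6.78 CPM (SD, n = 4 each). In cluster 6 it stood at 210 ± 33.4 and 19.7 ± 2.35 CPM, and in cluster 10, the shallowest by UMIs, at 188 ± 43.2 and 26.6 ± 6.13 CPM (SD, n = 4 each). Over mice with at least 50 nuclei, WT lay above Taz-KO in each of the 6 clusters, but clusters 19, 21 and 23 had only 2 such Taz-KO mice and cluster 19 only 3 such WT mice. Cluster 23 was the exception in level. Its leading genes include Mybphl and Kcnj3, and it was highest in Nppa (natriuretic peptide A) and Myl7 (atrial myosin light chain), with 1156 ± 360 and 213 ± 94.5 CPM in WT (SD, n = 4). There, Rpl3l was at 54.3 ± 20.2 CPM in WT (SD, n = 4) while the 2 Taz-KO mice had 12 and 16.9 CPM, below the other 5 clusters of the same mouse in each case. The ratio of Rpl3l to Rpl3 in that cluster was 1.05 ± 0.770 in WT (SD, n = 4), against 6.54 ± 4.35 in cluster 2 (SD, n = 4). By mouse it was 0.627, 0.842, 0.538 and 2.19 in WT mice 1 to 4. Rpl3 was thus the more abundant message of that cluster in WT 1, WT 2 and WT 3, and Rpl3l in WT 4.

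The paralogs differed in how their level went with the depth of a nucleus. CMs of each mouse were split into 3 bins of equal size by UMIs. In WT 1, Rpl3 was at 87.9, 51.8 and 34.3 CPM from the shallowest to the deepest bin, while Rpl3l was at 260, 257 and 251 CPM. Rpl3 was highest in the shallowest bin and lowest in the deepest in all 8 mice. Rpl3l in WT moved far less, from 174 to 260 CPM in the shallowest and from 167 to 251 CPM in the deepest bins. The shallowest bins also had the highest mitochondrial share of UMIs, for example 11.9% against 4.80% in the deepest bin of WT 1 and 24.1% against 12.5% in WT 2. Within each bin, the WT mice stayed above the Taz-KO mice for Rpl3l.

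**Figure D2:**
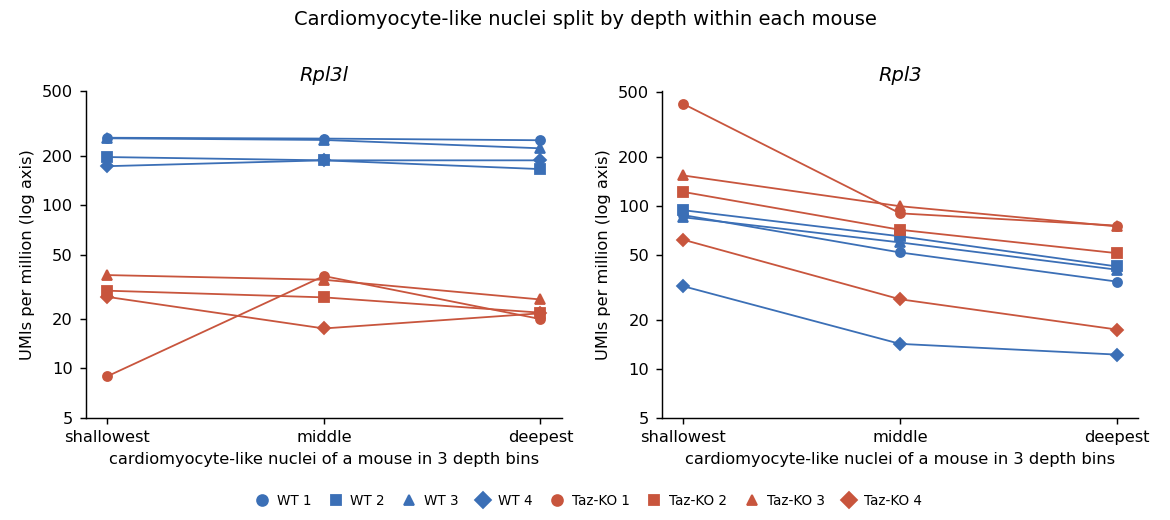
CPM (log axes) of Rpl3l (left) and Rpl3 (right) in CMs split into 3 equal bins by UMIs per nucleus, with 1 line per mouse. Rpl3 declines from the shallowest to the deepest bin in every mouse, as from 87.9 to 34.3 CPM in WT 1, whereas the WT lines of Rpl3l are nearly level, and Taz-KO 1, with 77 or 78 nuclei per bin, is the least even line.

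Outside CMs, Rpl3l was low in all 7 other named cell types. Over the 27 sums of a WT mouse and a type with at least 50 nuclei, it ranged from 19.2 to 80.4 CPM (median 55.9), against 179 to 254 CPM in CMs. Over the 22 Taz-KO sums it ranged from 0 to 19.2 CPM (median 11.6), against 21.2 to 30.9 CPM in CMs. In WT the order by mean was CMs, endothelial cells (ECs, 60.2 ± 19.9 CPM), pericytes (54.0 ± 19.8), FBs (51.4 ± 17.9), lymphatic ECs (50.1 ± 21.1), macrophages (49.0 ± 13), adipocytes (42.3 ± 20.4, n = 3) and mesothelial cells (37.0 ± 15), each with SD and n = 4 unless given. From ECs downwards each step in this order was smaller than the SD of either neighbour. The 10% of barcodes with the fewest UMIs in each library, which serve here as a stand-in for free RNA, held more Rpl3l than any of these types in 7 of the 8 mice, at 105, 109, 105 and 73.3 CPM in WT and 19.5, 20.4, 19.0 and 16.8 CPM in Taz-KO. In Taz-KO 3, lymphatic ECs were level with it (19.2 against 19.0 CPM). The Rpl3l of cell types other than CMs was thus at or below this level. Expression and free RNA were not separated there, and which of them these values reflect was not tested. The Rpl3l level was also lower in Taz-KO FBs and ECs (log2 fold changes of -2.81, SE 0.49, and -2.44, SE 0.36), as it was in the lowest-UMI barcodes. The part of free RNA in these differences was not tested.

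The comparison with background also bears on CMs. CM Rpl3l was 1.65 to 2.55 times the level of the lowest-UMI 10% of the same library in WT, and 1.22 to 1.63 times in Taz-KO. These barcodes were mostly kept as nuclei themselves, except in Taz-KO 4, where none of 557 was kept, since the files hold called cells and not empty droplets. Summed over clusters, the Rpl3l left in Taz-KO CMs was thus nearer to that level than in WT, but above it in each mouse. Single clusters could lie below it. Cluster 6 did in Taz-KO 1 (18.9 against 19.5 CPM) and Taz-KO 2 (16.7 against 20.4 CPM), but not in Taz-KO 3 and Taz-KO 4. Cluster 23 did in WT mice 1 to 4 (73.0, 69.9, 41.4 and 32.8 CPM) and in Taz-KO 2 and Taz-KO 3. The CM sum in Taz-KO was also above the other types of the same mouse. In nuclei thinned to 1000 UMIs, 2.59%, 2.58%, 3.17% and 1.62% of CMs of Taz-KO mice 1 to 4 held an Rpl3l UMI, against at most 1.06%, 1.97%, 2.45% and 0.746% of any other type with at least 50 nuclei. In share of nuclei without thinning, 8.24% to 40.0% of nuclei of the other types held an Rpl3l UMI in WT (medians of 3089 to 12368 UMIs per nucleus) and 0% to 6.58% in Taz-KO (medians of 1918 to 6173 UMIs). In Taz-KO 4, 0 of 465 macrophages held an Rpl3l UMI, which allows up to 0.645% of such nuclei, for counting error only.

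Rpl3 was higher in the other types than in CMs of the same mouse, except in Taz-KO 4, where pericytes were slightly below CMs. By mean in WT, ECs (116 ± 51.1 CPM) came first, then pericytes (101 ± 45.2), FBs (98.7 ± 43.4), lymphatic ECs (91.3 ± 40.3), macrophages (90.6 ± 33.6), mesothelial cells (74.5 ± 27.0), adipocytes (70.3 ± 11.6, n = 3) and CMs (44.3 ± 19.9), each with SD and n = 4 unless given, and neighbours in this order did not differ beyond their SD, apart from adipocytes and CMs, where the adipocyte mean lacks WT 4. In FBs, Rpl3 was at 113, 123, 125 and 34.1 CPM in WT mice 1 to 4 and at 248, 177, 195 and 26.9 CPM in Taz-KO mice 1 to 4. In ECs it was at 130, 151, 143 and 40.7 CPM in WT and at 321, 205, 228 and 40.3 CPM in Taz-KO. In both types 3 Taz-KO mice lay above the WT mice while Taz-KO 4 was as low as WT 4, and the fitted log2 fold changes were 0.62 (SE 0.58) in FBs and 0.70 (SE 0.56) in ECs. With 1 mouse left out they ran from 0.32 (without WT 4) to 0.95 (without Taz-KO 4) in FBs. In ECs they ran from 0.38 (without Taz-KO 1) to 1.03 (without Taz-KO 4). The lowest-UMI 10% of barcodes held more Rpl3 than any cell type in all 8 libraries, at 193, 176, 189 and 60.1 CPM in WT and 460, 286, 276 and 67.2 CPM in Taz-KO. Rpl3 thus exceeded this background level in no cell type, and the part of free RNA in its differences between genotypes was not tested.

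**Figure D3:**
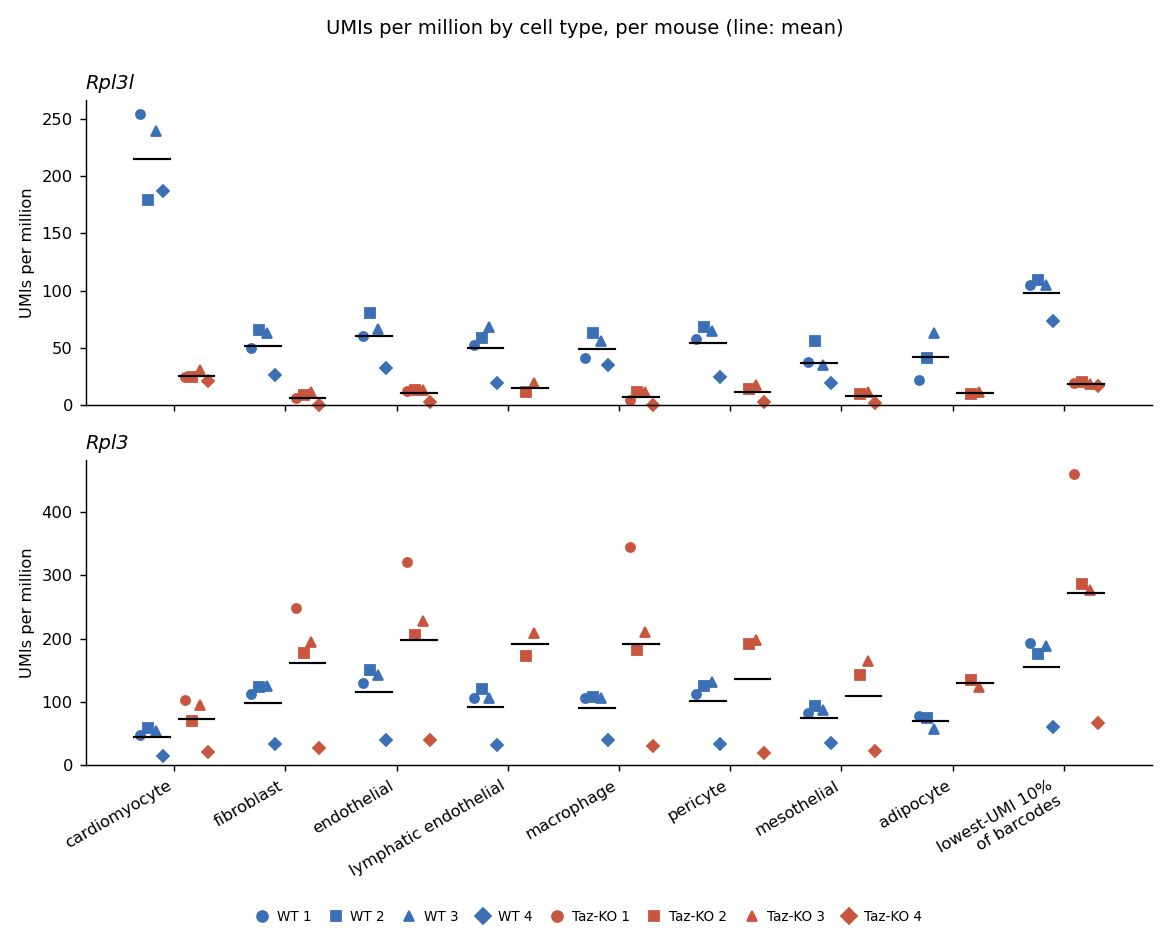
CPM of Rpl3l (top) and Rpl3 (bottom) per mouse in 8 marker-defined cell types and in the lowest-UMI 10% of barcodes of each library, with group means as black lines and sums of under 50 nuclei left out. Rpl3l is high in WT CMs only (179 to 254 CPM, against at most 80.4 CPM in other types), whereas the highest Rpl3 values are those of the lowest-UMI barcodes, up to 460 CPM in Taz-KO 1.

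Both genes were also set against Ttn (titin), a message of the CMs, within each mouse. In WT 2, Rpl3l was at 15.5 to 19.0 UMIs per 1000 Ttn UMIs in the 7 other types and at 17.7 in the lowest-UMI 10%, against 7.89 in CMs. In Taz-KO 2 it was at 2.07 to 3.15 in the other types and at 2.66 in the lowest-UMI 10%, against 1.08 in CMs. In both mice the other types had ratios close to that of the lowest-UMI barcodes of their own library and above that of CMs. Taz-KO 1 and Taz-KO 4, with few Rpl3l UMIs outside CMs, were less even, at 1.5 to 3.14 against 4.03 and at 0 to 2.51 against 1.92 in the lowest-UMI 10%. For Rpl3 the same held in WT 2, with 28.2 to 33.6 UMIs per 1000 Ttn UMIs in the other types and 28.6 in the lowest-UMI 10%, against 2.59 in CMs. In Taz-KO 2 the other types, at 40.3 to 45.9, were all somewhat above the lowest-UMI 10% at 37.3, with CMs at 3.0. The Rpl3 ratios of the other types were also all above the lowest-UMI 10% in WT 1 (29.6 to 44.7 against 26.1), WT 4 (10.9 to 13.7 against 7.27) and Taz-KO 4 (14.4 to 25.1 against 7.67), and in WT 3 they ran from 13 to 35.0 around 27.4.

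**Figure D4:**
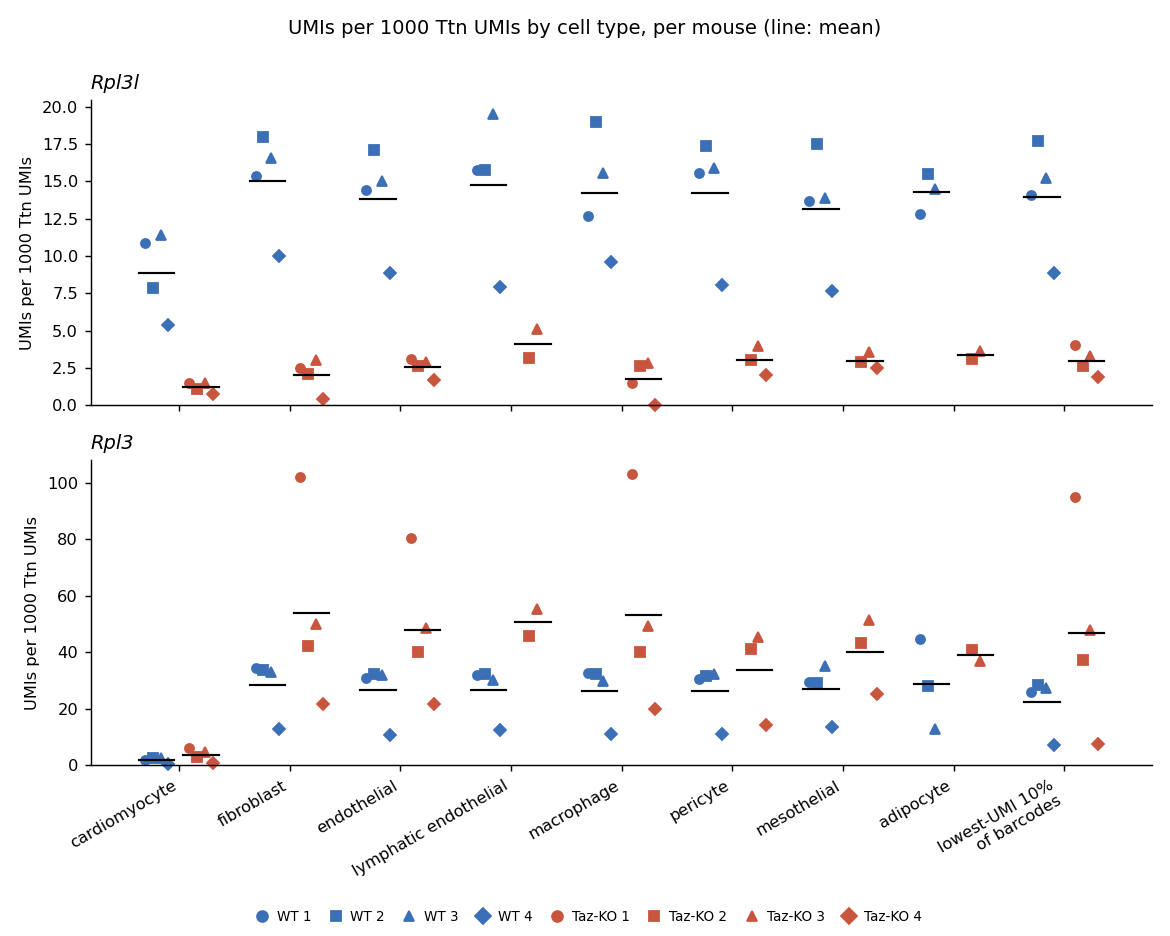
UMIs of Rpl3l (top) and Rpl3 (bottom) per 1000 Ttn UMIs, per mouse, in the same cell types and lowest-UMI barcodes, with group means as black lines. For Rpl3l in WT 2 the other types lie at 15.5 to 19.0, near the lowest-UMI barcodes at 17.7 and above CMs at 7.89, while other mice are less even, as for Rpl3 in WT 3 (13 to 35.0) and Rpl3l in Taz-KO 4 (0 to 2.51).

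To separate Rpl3 from the level of ribosomal protein genes in general, it was taken as a share of the UMIs of the 80 ribosomal protein genes. In CMs the share was 0.693%, 0.645%, 0.626% and 0.793% in WT mice 1 to 4 and 0.873%, 0.820%, 0.832% and 1.02% in Taz-KO mice 1 to 4. The groups did not overlap on this scale, WT 4 and Taz-KO 4 included. It was 1 of 4 ribosomal protein genes (5.00% of 80) whose share was above WT in every Taz-KO mouse, with Rpl35, Rpl41 and Rps26, and its mean log2 difference of 0.36 ranked 5 from the highest. In FBs the share of Rpl3 was 0.623% to 0.769% in WT and 0.700% to 0.872% in Taz-KO, which overlapped, where 2.50% of the 80 genes had no overlap in this direction. In ECs it was 0.610% to 0.682% and 0.688% to 0.787%, without overlap, as in 8.75% of the 80 genes. The lowest-UMI 10% of barcodes showed a like difference, with 0.628% to 0.708% in WT and 0.759% to 0.840% in Taz-KO.

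The rest of the ribosome was described from lists of genes. Of 46 other large-subunit ribosomal protein genes, all tested in CMs, 2 were called higher in Taz-KO and 0 lower, at a share of 4.35% against the 8.64% of all genes. Of these, Rpl29 was at 41.8 ± 15.9 and 91.0 ± 25.6 CPM (SD, n = 4 each), with a log2 fold change of 1.01 (SE 0.26, edgeR adjusted p = 0.0229), and lost the call without WT 1, Taz-KO 1 or Taz-KO 2 (edgeR adjusted p = 0.0542, 0.0662 and 0.0543). Of 33 small-subunit genes, 0 were called by edgeR, 0 had an unadjusted p below 0.05, and 0 were called by DESeq2. Over all genes in CMs, 5273 of 18491 had an unadjusted edgeR p below 0.05. The median log2 fold changes of both lists, 0.19 and 0.13 against -0.01 over all genes, turned to -0.35 and -0.49 when a background share of 0.2 with the profile of the lowest-UMI 10% was subtracted, so they have no fixed direction. They were also -0.10 and -0.16 without WT 4. In FBs and ECs, 0.0994% and 0.105% of genes were called lower and 0.246% and 0.347% higher. Of the 172 and 171 tested entries of all 7 lists there, edgeR called 0 and DESeq2 called 0 in both. Eef1a1, in 2 of the lists, is counted in each. Entries at an unadjusted edgeR p below 0.05 numbered 8 and 7, against 1666 of 17098 genes in FBs and 1244 of 16133 in ECs. Non-overlap was also rarer there, at 1.84% (below WT) and 4.12% (above WT) of genes in FBs and 1.66% and 3.17% in ECs. Of 9 other genes for paralogs of ribosomal proteins, such as Rpl22l1 and Rps27l, 8 are in the count tables, 6 passed the filter on low counts in CMs and 0 were called by edgeR, at 0 with an unadjusted p below 0.05 and 0 by DESeq2.

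Among factors that build the large subunit, calls were more frequent than among all genes, but by little in some subsets of the mice. Of 43 assembly factor genes, all tested, 11 (25.6%) rose in Taz-KO CMs, against 8.64% of all genes, and 0 fell, and the median log2 fold change was 0.31. Gnl3 (nucleostemin, a nucleolar GTPase) was at 21.2, 18.4, 19.9 and 13 CPM in WT mice 1 to 4 and at 58.9, 56.0, 64.5 and 78.7 CPM in Taz-KO mice 1 to 4, without overlap, with a log2 fold change of 1.74 (SE 0.20, edgeR adjusted p = 2.39e-04). Ppan, needed for early large-subunit precursors, rose from 4.72 ± 0.867 to 9.78 ± 4.76 CPM (SD, n = 4 each, edgeR adjusted p = 0.0342), a call that was lost in 6 of the 8 fits with 1 mouse left out (edgeR adjusted p up to 0.109, without Taz-KO 3) and kept without Taz-KO 1 or Taz-KO 2. Bop1, a partner in pre-rRNA processing, rose from 6.91 ± 1.17 to 12.9 ± 1.44 CPM (SD, n = 4 each, edgeR adjusted p = 0.0130), but was not called without both Taz-KO 1 and Taz-KO 4 (edgeR adjusted p = 0.0831) or with CMs taken by Ryr2 and Ttn (0.0509). Grwd1, the chaperone that binds newly made uL3, was at 2.36, 2.66, 2.34 and 1.26 CPM in WT and at 3.87, 3.16, 5.15 and 4.35 CPM in Taz-KO. Its groups did not overlap, but it did not pass the test (log2 fold change 0.82, SE 0.26, edgeR adjusted p = 0.0567). It passed by DESeq2 (adjusted p = 0.0241) and, by edgeR, with CMs taken by Ryr2 and Ttn (adjusted p = 0.0499). Mettl18, a methyltransferase that modifies a histidine of the Rpl3 protein, was at 1.85 ± 0.656 and 2.25 ± 0.882 CPM (SD, n = 4 each, edgeR adjusted p = 0.753). Without both Taz-KO 1 and Taz-KO 4 the list had 3 calls (6.98%, against 6.11% of all genes higher in that fit). Leaving out 1 mouse gave 3 calls (6.98% against 5.42%, without WT 2) to 10 (23.3% against 7.77%, without Taz-KO 1).

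Among 14 genes of elongation and termination, 2 rose (14.3%, against 8.64% of all genes) and 0 fell (against 6.47%). Dph5, an enzyme of the diphthamide modification of elongation factor eEF2, was at 13.9 ± 0.358 CPM in WT, against 31.5 ± 1.56 CPM for Taz-KO (SD, n = 4 each), without overlap, with a log2 fold change of 1.06 (SE 0.15, edgeR adjusted p = 9.54e-04). Abce1, which recycles ribosomes after termination, was at 35.6 ± 7.68 and 57.2 ± 6.17 CPM (SD, n = 4 each, log2 fold change 0.57, SE 0.17, edgeR adjusted p = 0.0399). Abce1 kept its call only without WT 1 or Taz-KO 1 among the 8 fits with 1 mouse left out (edgeR adjusted p up to 0.128, without WT 2), while Dph5 kept it in all 8.

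Rpl3l and Rpl3 form 1 of several pairs in which adult muscle uses a member of its own. In 15 other such pairs, the fitted log2 fold change in CMs was lower for the adult-muscle member than for the broadly expressed or fetal member in 14. The exception was Ldhb and Ldha, where the heart form of lactate dehydrogenase was taken as the adult-muscle member. In 9 of the 15 pairs the estimate was below 0 for the adult-muscle member and above 0 for its partner. The difference between the members ran from -2.22 to 0.07 (median -1.17), and for Rpl3l and Rpl3 it was -3.78. Of the 15 adult-muscle members 5 fell (33.3%, against 6.47% of all genes) and 0 rose, and of the 15 partners 4 rose (26.7%, against 8.64%) and 0 fell. The partner Ldha fell just short of a call (log2 fold change -0.76, SE 0.24, edgeR adjusted p = 0.0517). It was called in 1 of the 8 fits with 1 mouse left out and in 5 of 8 other alternatives. By list, 1 partner was called lower by DESeq2, without a filter on low counts, without WT 4, without WT 4 and Taz-KO 4, and after background subtraction. Outside CMs, the estimates of members and partners leaned the same way as in CMs. In FBs and in ECs, 14 of the 15 adult-muscle members were below 0 (median log2 fold change -0.60 in both). The partners had medians of 0.30 and 0.46, against 0.01 over all genes in both types. None of them was called by edgeR, as counted above over all lists. Ttn, a message of the CMs, was also present there, at 2636 to 3784 CPM in WT FBs and 3733 to 4692 CPM in WT ECs. The part of free RNA in this lean was not tested. The lists and the pair of interest were chosen with earlier results known, so these shares are a description.

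The 3 pairs in which both members were called serve glucose uptake and glycolysis. Eno3, the muscle enolase, was at 151, 180, 180 and 91.1 CPM in WT mice 1 to 4 and at 54.8, 52.5, 76.0 and 46.5 CPM in Taz-KO mice 1 to 4, without overlap (log2 fold change -1.51, SE 0.19, edgeR adjusted p = 4.08e-04). Its partner Eno1 was at 35.1 ± 4.65 CPM in WT, against 61.5 ± 10.0 CPM for Taz-KO (SD, n = 4 each, log2 fold change 0.71, edgeR adjusted p = 0.0351). Pfkm, the muscle phosphofructokinase, fell and Pfkp, its platelet form, rose, with log2 fold changes of -0.59 (edgeR adjusted p = 0.0206) and 0.94 (edgeR adjusted p = 0.00867). Slc2a4, the insulin-responsive glucose transporter, fell, although Taz-KO 1 and Taz-KO 3 lay above WT 4, and the basal transporter Slc2a1 rose, with log2 fold changes of -0.87 (edgeR adjusted p = 0.0195) and 0.83 (edgeR adjusted p = 0.0479). Of these 6 calls, those of Eno3 and Pfkp held in all 8 fits with 1 mouse left out. Eno1 lost its call without any single WT mouse or Taz-KO 2 (edgeR adjusted p up to 0.113), Slc2a1 without any single mouse other than WT 4 and Taz-KO 2 (up to 0.118), Slc2a4 without WT 2, Taz-KO 2 or Taz-KO 4 (up to 0.0575), and Pfkm without WT 1 or WT 2 (up to 0.0645). Hk1 rose as well (log2 fold change 0.96, edgeR adjusted p = 0.00950), while Hk2, the form of insulin-sensitive muscle, was at 345 ± 86.4 and 438 ± 120 CPM (SD, n = 4 each) and was not called.

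Elsewhere single members passed. Ldhb, the heart form of lactate dehydrogenase, fell by 0.69 on the log2 scale (edgeR adjusted p = 0.0206), though not without WT 2 (edgeR adjusted p = 0.0737). The pairs of the contractile apparatus were not called by edgeR with all mice. Myh6, the adult myosin heavy chain, was at 9208 ± 785 and 8223 ± 1721 CPM, and Myh7 was at 371 ± 122 and 568 ± 242 CPM (SD, n = 4 each). Tnni3, the adult cardiac troponin I, was at 942 ± 394 and 530 ± 235 CPM (SD, n = 4 each), with the fetal Tnni1 under 1 CPM in every mouse. Tnni3 was called lower by DESeq2 (adjusted p = 0.0375) and, by edgeR, without WT 4 (adjusted p = 0.0371) and without both WT 4 and Taz-KO 4 (adjusted p = 0.0109). Eef1a2 and Eef1a1, the other pair of the translation machinery, were at 160 ± 59.3 and 120 ± 34.2 CPM and at 162 ± 83.3 and 277 ± 151 CPM (SD, n = 4 each), with log2 fold changes of -0.54 and 0.63 that did not pass (edgeR adjusted p = 0.173 and 0.519). Both passed without WT 4 and Taz-KO 4 (edgeR adjusted p = 0.0362 and 0.0433), and Eef1a2 also without WT 4 alone (0.0379). Without both Taz-KO 1 and Taz-KO 4, 2 adult-muscle members were called lower (against 701 of 19471 genes) and 0 partners were called (against 6.11% of genes higher). Leaving out 1 mouse gave 2 adult-muscle members lower (without WT 2, against 898 of 18817 genes) to 9 (without WT 4, against 981 of 18856). With WT 1, WT 2 or WT 3 left out, 2 partners were higher (13.3%, against 6.34%, 5.42% and 7.89% of genes).

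**Figure D5:**
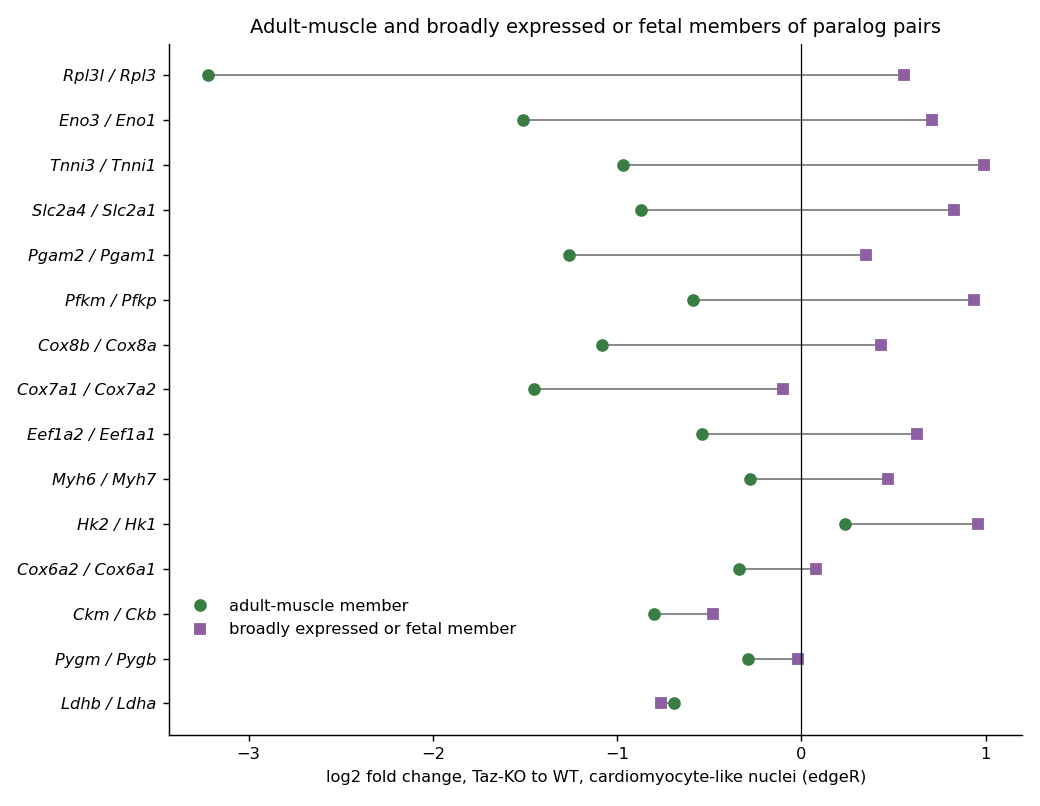
Fitted log2 fold change (Taz-KO to WT, edgeR, CMs) of the adult-muscle member (circle) and the broadly expressed or fetal member (square) of 14 of the paralog pairs and of Rpl3l and Rpl3, ordered by the difference. The circle lies left of the square in 13 of these 14 pairs, and the difference is -3.78 for Rpl3l and Rpl3, against -2.22 for Eno3 and Eno1, the widest of the other pairs.

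The patterns of the paralogs over cell types and mice had little in common. Over 57 sums of a mouse and a cell type (8 types, which share their libraries), the Pearson correlation of log2(CPM + 1) between Rpl3l and Rpl3 was 0.01. Among 12578 genes at a mean of 10 CPM or more in some type, the genes most like Rpl3l were Ogdhl (r = 0.921), an oxoglutarate dehydrogenase relative, Myot (r = 0.915), which encodes the Z-disc protein myotilin, and the unnamed loci Gm20757 (r = 0.878), Gm15543 (r = 0.871) and Gm24474 (r = 0.867). The genes most like Rpl3 were Rpl36a (r = 0.990), Rpl39 (r = 0.989), Rps26 (r = 0.989), Rpl37 (r = 0.987) and Rps19 (r = 0.986). Of the 50 genes most like Rpl3, 47 were ribosomal protein genes, and of the 50 most like Rpl3l, 0 were. These sums share libraries, depth and free RNA, so the correlations are a description.

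Markers of other cells were present in CMs at levels that varied between mice. The summed level of 7 fibroblast markers, all detected in every mouse, was 910 to 4752 CPM in WT CMs and 270 to 3548 CPM in Taz-KO CMs, against 6797 to 17284 CPM in FBs. For 9 endothelial markers it was 378 to 769 and 160 to 829 CPM, and for 8 macrophage markers 176 to 286 and 134 to 282 CPM. The median mitochondrial share of UMIs per CM was 5.15% to 17.6% in WT and 0.866% to 12.7% in Taz-KO. The ranges overlapped between genotypes, and their part in the results was not tested.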

How the data were processed

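Nuclei of 8 hearts were profiled by 10x 3′ v3.1 single-nucleus RNA-seq. For each library the authors deposited a matrix of unnormalised UMI counts, made with Cell Ranger 6.0.1 on mm10 with intronic reads included, per the submitters' processing notes and the study's methods. Their later ambient RNA and doublet steps are not part of these tables. Both genes and the gene lists were chosen with earlier results of these data known.

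A barcode was kept from 800 UMIs and 250 genes upwards, scored doublets were removed, and libraries were joined on 15 principal components of 2000 variable genes with Harmony and clustered by Leiden (resolution 0.9, igraph 0.11.9). Clusters were named from markers by score limits set after the scores were seen. For each mouse, the UMIs of a cell type were added up and scaled to CPM. Sums were tested with edgeR 4.0.16 (TMM, filterByExpr, robust quasi-likelihood, R 4.3.3), with Benjamini-Hochberg adjustment over all genes and a threshold of 0.05. The SE of an edgeR log2 fold change was worked back from its F statistic, as the absolute change divided by the root of F. For Rpl3l and Rpl3 it is a description only. P-values set the difference between genotypes against the spread between mice. At 1 library per mouse, that spread includes the spread between libraries. On simulated counts for CMs (18281 genes), edgeR recovered 172 of 200 genes changed 4-fold, with 8 false calls. Nuclei were thinned to 1000 or 2000 UMIs. The limit for a count of 0 is 3 counts, for counting error only.

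Named genes were Rpl3l, Rpl3, Taz, Grwd1, Mettl18, the 3 called genes of each list with the largest change in each direction, the paralog pairs, and the 5 genes most like each member. Some genes of the lists enter the counts but are not reported here by name. Alternatives were DESeq2 1.42.0, no filter on low counts, each mouse left out, Taz-KO 1 and Taz-KO 4 left out, doublets kept, Leiden resolution 0.5, CMs by Ryr2 and Ttn, and subtraction of a background share of 0.2. Leaving out WT 4 and Taz-KO 4 was added after seeing the data. Gene positions and sequences come from GENCODE vM21 on GRCm38, the build of mm10, aligned with Biopython 1.88. Its annotation release may differ from that of the counts.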

Additional observations from a re-analysis of the deposited data

Results flagged for a closer look

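Dixon's test at the 95% level was run in 130 groups of 4 mice and singled out 12 values, where chance alone gives about 1 in 20 groups. WT 4 was low in Rpl3, at 34.1 CPM in FBs (others 113 to 125), 31.6 CPM in lymphatic ECs (107 to 120), 40.3 CPM in macrophages (107 to 108) and 60.1 CPM in the lowest-UMI 10% of barcodes (176 to 193). Its lowest-UMI barcodes were also low in Rpl3l, at 73.3 CPM (105 to 109), and high in the ratio of Rpl3l to Rpl3, at 1.22 (0.542 to 0.621). Taz-KO 4 had the highest ratio of its group in CMs, 0.985 (0.238 to 0.360), and in the lowest-UMI barcodes, 0.250 (0.0424 to 0.0714), and was low in Rpl3l in ECs, at 3.10 CPM (12.5 to 13.7). Among the other genes in CMs, Rpl29 was high in Taz-KO 1 at 129 CPM (73.5 to 81.0) and Ppan in Taz-KO 3 at 16.9 CPM (6.78 to 8.15). Cox7a1 was low in Taz-KO 4 at 18.0 CPM (98.7 to 111). No cause was tested.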

How the results depend on the processing

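Over 805 recomputed values for 54 results, 638 kept their direction and side of the threshold or stayed near the first value, 63 lost and 22 gained significance, 59 moved and 23 changed sign. The log2 fold changes of Rpl3l and Rpl3 and the ratio kept their direction in each alternative run. With no overlap between the groups in Rpl3l and the ratio, leaving out 1 mouse could hardly reverse them. These values chose the genes, so their kept direction is no test of them. Of 15 named genes called in CMs, 9 lost the call in some fit with 1 mouse left out, and Gnl3, Dph5 and Eno3 kept it in every alternative. The Taz-KO minus WT share of CMs with an Rpl3l UMI was -16.5 percentage points at 1000 UMIs, -28.8 at 2000 and -57.9 unthinned, and for Rpl3 3.29 and 11 unthinned. Calls in CMs were 2793, and 1535 with CMs taken by Ryr2 and Ttn. Calls in FBs were 59, with 102 without a filter, 335 by DESeq2, 12 to 183 with 1 mouse left out, 110 without Taz-KO 1 and Taz-KO 4, 400 without WT 4 and Taz-KO 4, and 0 after background subtraction (1160 at an unadjusted p below 0.05). In ECs they were 73, with 127, 280, 12 to 168, 122, 245 and 11 in the same order. With 1 mouse left out, 1917 of 18817 genes (without WT 2) to 2657 of 18932 (without Taz-KO 4) were called in CMs. In these fits large-subunit proteins had 1 to 2 calls, assembly factors 3 to 10, elongation and termination genes 1 to 2, adult-muscle members 2 to 9 and their partners 2 to 4. The 4 partner calls without WT 4 include 1 lower. Without Taz-KO 1 and Taz-KO 4 these lists had 1, 3, 1, 2 and 0 calls, against 1890 of 19471 genes. Without WT 4 and Taz-KO 4, large-subunit proteins had 5, small-subunit proteins 1, other paralogs 1 and adult-muscle members 11, against 2805 of 18911 genes. Elongation and termination genes had 1 call without a filter (2888 of 28079 genes) and 1 after background subtraction (1934 of 16688). Adult-muscle members had 8 by DESeq2 (3500 of 18491).

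The 23 changes of sign were in genes that were not called. By background subtraction, Mettl18 went to -0.17 and Cox6a1 to -0.16. Without Taz-KO 1 and Taz-KO 4, Cox6a2 went to 0.05, Hk2 to -0.14, Cox7a2 to 0.23 and Pygb to 0.11. Without WT 4 and Taz-KO 4, Hk2 went to -0.05 and Pygb to 0.01. With CMs taken by Ryr2 and Ttn, Cox6a2 went to 0.09, Cox7a2 to 0.31 and Ckb to 0.20. Pygb went to 0.05 at Leiden resolution 0.5 and 0.04 with doublets kept. With 1 mouse left out, Cox6a2 ran from -0.67 to 0.01 (without Taz-KO 4), Cox6a1 from -0.09 to 0.27 (below 0 also at -0.04), Cox7a2 from -0.35 to 0.16 (above 0 also at 0.02 and 0.03) and Pygb from -0.16 to 0.13 (also 0.00, 0.04 and 0.03). The cause was not tested. Taz-KO 1 and Taz-KO 4 held few nuclei, the tables hold no empty droplets, and Rpl3l in Taz-KO CMs rests on 126 to 2509 UMIs per mouse, so levels near background are not separated from free RNA. No paired analysis was run, because the replicate numbers only name the mice and no pairing of mice is stated in the sources used here.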
